A study of Rattus norvegicus with 65 samples.

Results

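The genes described here encode the translation initiation and elongation factors, the proteins that load ribosomes onto mRNA and move them along it. Members were the genes of the count table whose rat symbol begins with Eif1, Eif2b, Eif2s, Eif3, Eif4, Eif5, Eif6, Eef1 or Eef2, without the kinase Eef2k. The rule gave 62 of 14554 genes and used no measured value. Of the 62 members 59 are annotated as protein coding and 3 as pseudogenes. Eef2kmt was kept, because it encodes a methyltransferase of eEF2 and no kinase. Counts were at least 10 in every library for 59 members. Some genes of the family with no row in the table, such as Eif3h and Eif3i, were not analysed here.

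The RNA was that of heart muscle cells of newborn rats (neonatal rat cardiomyocytes) in primary culture, serum starved before treatment. Cells were treated for 6 or 24 h with 10 mM 5-fluorouracil (5FU, an antimetabolite of cancer therapy), 2.5 mM acetaminophen (Ace, a painkiller) or 1.25 μM doxorubicin (Dox, an anthracycline that intercalates into DNA). DMSO1, with 1% DMSO, was the control of 5FU, and DMSO2, with 0.25% DMSO, was the control of Ace and of Dox, so the effects of Ace and Dox share their control libraries. In any difference of Ace or Dox from 5FU, the drug and the DMSO dose cannot be told apart. There were 65 polyA RNA libraries: at 6 h 6 each of 5FU, Ace and DMSO1 and 7 each of Dox and DMSO2, and at 24 h 6 each of 5FU and DMSO1 and 7 each of Ace, Dox and DMSO2. Cells of several litters were pooled ahead of plating, so each library is a separate well of the same pool, and p-values measure the spread between wells and not between animals.

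Translation of most mRNAs starts when eIF4F, made of the cap-binding eIF4E, the scaffold eIF4G and the helicase eIF4A, recruits the small ribosomal subunit. That subunit carries eIF1, eIF1A, eIF3 and the eIF2 trimer, which brings the initiator tRNA. eIF2B reloads eIF2 with GTP, and phosphorylation of eIF2α by stress kinases blocks this step. The 4E-BP proteins hold back eIF4E until mTORC1 phosphorylates them. eIF5 and eIF5B then join the subunits, eIF6 keeps the large subunit apart until it is needed, eEF1A delivers aminoacyl-tRNA, eEF2 translocates the ribosome, and eIF5A, which carries the amino acid hypusine, helps it past difficult stretches. In heart muscle eEF1A is present as eEF1A1 and as eEF1A2, the form typical of mature muscle and neurons. The RNA counted here tells nothing of phosphorylation or of the rate of translation.

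Many elongation factor mRNAs belong to the 5′ TOP class, which begins with a run of pyrimidines that couples translation to mTORC1 through LARP1. Windows around the RefSeq start site (rat assembly GRCr8, from 250 bases before to 50 after it) were at hand for 52 members. To look for such runs, 50 bases around the start, from 20 before it, follow for the 5 known TOP members with a window. Capitals mark the longest pyrimidine run that reaches into the 35 bases from 15 before to 20 after the start.
Eef1a1 (chr8:88225040-88225089, minus strand): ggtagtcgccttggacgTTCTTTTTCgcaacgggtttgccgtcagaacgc
Eef1b2 (chr9:72074071-72074120, plus strand): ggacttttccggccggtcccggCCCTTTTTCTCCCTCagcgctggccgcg
Eef1g (chr1:215289795-215289844, plus strand): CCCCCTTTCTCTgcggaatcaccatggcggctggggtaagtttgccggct
Eef2 (chr7:9189209-9189258, minus strand): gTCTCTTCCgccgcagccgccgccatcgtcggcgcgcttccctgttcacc
Eif3f (chr1:172369042-172369091, plus strand): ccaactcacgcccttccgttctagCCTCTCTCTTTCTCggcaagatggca
The runs have 9, 15, 12, 8 and 14 bases in this order. None begins exactly at the RefSeq start. The run of Eef1a1 spans that start, those of Eef1b2 and Eif3f begin after it, and those of Eef1g and Eef2 lie wholly before it. These windows therefore do not show that the mRNAs begin with the marked runs. The RefSeq start need not be the start used in these cells. The median run was 12 bases for these 5 and 5.0 for all 33469 windows of the table. Runs of 7 bases or more were in 27.2% of all windows and in 40.4% of the members' windows.

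The paralogs Eif5a and Eif5a2, and likewise Eif1 and Eif1b, changed unequally with Dox in the data below. Their promoter windows from 250 bases before to 30 after the start are given with the E-box CACGTG in capitals. The E-box, the site of Myc and related factors, reads the same on both strands.
Eif5a (chr10:55143192-55143471, minus strand): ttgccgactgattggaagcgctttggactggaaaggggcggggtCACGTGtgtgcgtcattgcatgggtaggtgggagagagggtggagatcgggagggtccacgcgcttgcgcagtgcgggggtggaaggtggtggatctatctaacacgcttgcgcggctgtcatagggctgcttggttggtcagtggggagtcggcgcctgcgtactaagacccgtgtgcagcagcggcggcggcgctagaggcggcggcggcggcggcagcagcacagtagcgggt
Eif5a2 (chr2:113657584-113657863, plus strand): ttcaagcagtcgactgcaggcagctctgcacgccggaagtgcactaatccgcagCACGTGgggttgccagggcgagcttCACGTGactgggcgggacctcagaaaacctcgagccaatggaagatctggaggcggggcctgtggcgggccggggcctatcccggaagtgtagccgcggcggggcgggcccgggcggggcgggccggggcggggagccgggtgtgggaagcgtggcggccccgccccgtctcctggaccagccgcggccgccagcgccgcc
Eif1 (chr10:85746887-85747166, plus strand): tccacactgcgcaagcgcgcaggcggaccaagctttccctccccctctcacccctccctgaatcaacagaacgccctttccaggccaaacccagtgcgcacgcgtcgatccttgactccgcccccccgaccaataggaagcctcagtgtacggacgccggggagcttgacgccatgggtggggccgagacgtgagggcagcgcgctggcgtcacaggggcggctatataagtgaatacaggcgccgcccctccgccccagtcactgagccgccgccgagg
Eif1b (chr8:129080908-129081187, plus strand): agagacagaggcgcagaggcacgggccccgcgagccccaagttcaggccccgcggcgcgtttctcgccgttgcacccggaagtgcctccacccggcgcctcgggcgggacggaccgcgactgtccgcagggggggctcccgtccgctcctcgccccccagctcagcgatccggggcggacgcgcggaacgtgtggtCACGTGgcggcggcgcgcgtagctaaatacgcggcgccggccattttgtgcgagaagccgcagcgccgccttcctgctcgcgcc
CACGTG began 206 bases before the start of Eif5a, 196 and 171 bases before that of Eif5a2 and 54 bases before that of Eif1b, and these letters are not in the window of Eif1. Over the 300-base windows CACGTG was in 11 of 52 members (21.2%) and in 6.42% of all windows. CCGGAAGT, an ETS-type motif searched on both strands, was in 7 members (13.5%) and in 3.81% of all windows, and TGATGNAAT, an amino acid response type motif, in 0 and in 1.09%. These matches describe letters and not binding.

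Dox changed the most members and Ace the fewest. A member was called at a Benjamini-Hochberg FDR below 0.01 in edgeR's quasi-likelihood test, fitted and adjusted over all 14554 genes, and levels are given as CPM, the count of a gene scaled to a common library total with TMM factors. CPM was not divided by transcript length, so levels of different genes are not set against each other. Against DMSO2, Dox raised 31 members and lowered 11 at 6 h (67.7% called, against 64.2% of all genes, of which 31.5% were higher and 32.7% lower) and raised 25 and lowered 29 at 24 h (87.1% against 81.4%, 40.4% higher and 41% lower). Against DMSO1, 5FU raised 15 and lowered 12 at 6 h (43.5% against 47.9%, 23.4% higher and 24.5% lower) and raised 20 and lowered 14 at 24 h (54.8% against 55.8%, 28% higher and 27.8% lower). Ace raised 6 and lowered 5 at 6 h (17.7% against 31.7%, 16.5% higher and 15.2% lower) and raised 8 and lowered 7 at 24 h (24.2% against 37.2%, 18.2% higher and 19.1% lower). In all 6 comparisons the share of members called thus lay near or below that of all genes.

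The tilt of Dox at 6 h was to higher levels. Of the members 50% were called higher, and the median log2 fold change was 0.19 in the members and 0.00 in all genes. At 24 h it was -0.15 in the members and 0.00 in all genes. With scaling by library size only, Dox at 6 h gave 15 higher and 18 lower members, 5FU at 6 h 8 and 20, Ace at 6 h 6 and 11 and Ace at 24 h 14 and 3, so these splits depend on the scaling. That scaling moved the median of all genes by -0.15 in Dox at 6 h, and the members' median relative to all genes stayed at 0.18. Changes were mostly small: among the called members 12 reached an absolute log2 fold change of 1 in Dox at 24 h (all genes: 39.1%), 3 in 5FU at 24 h (10.2%), 1 in Ace at 24 h (6.12%) and 0 at 6 h (15.4% in Dox, 6.03% in 5FU and 2.64% in Ace). Those at 24 h include Eef1akmt3 in each drug and Eif4a1-ps8 in 5FU, which had at most 15 and 13 counts in a library. Libraries of Dox and DMSO2 did not overlap for 19 higher and 7 lower members at 6 h (all genes: 42.6%) and for 17 higher and 25 lower members at 24 h (all genes: 68.2%).

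**Figure D1:**
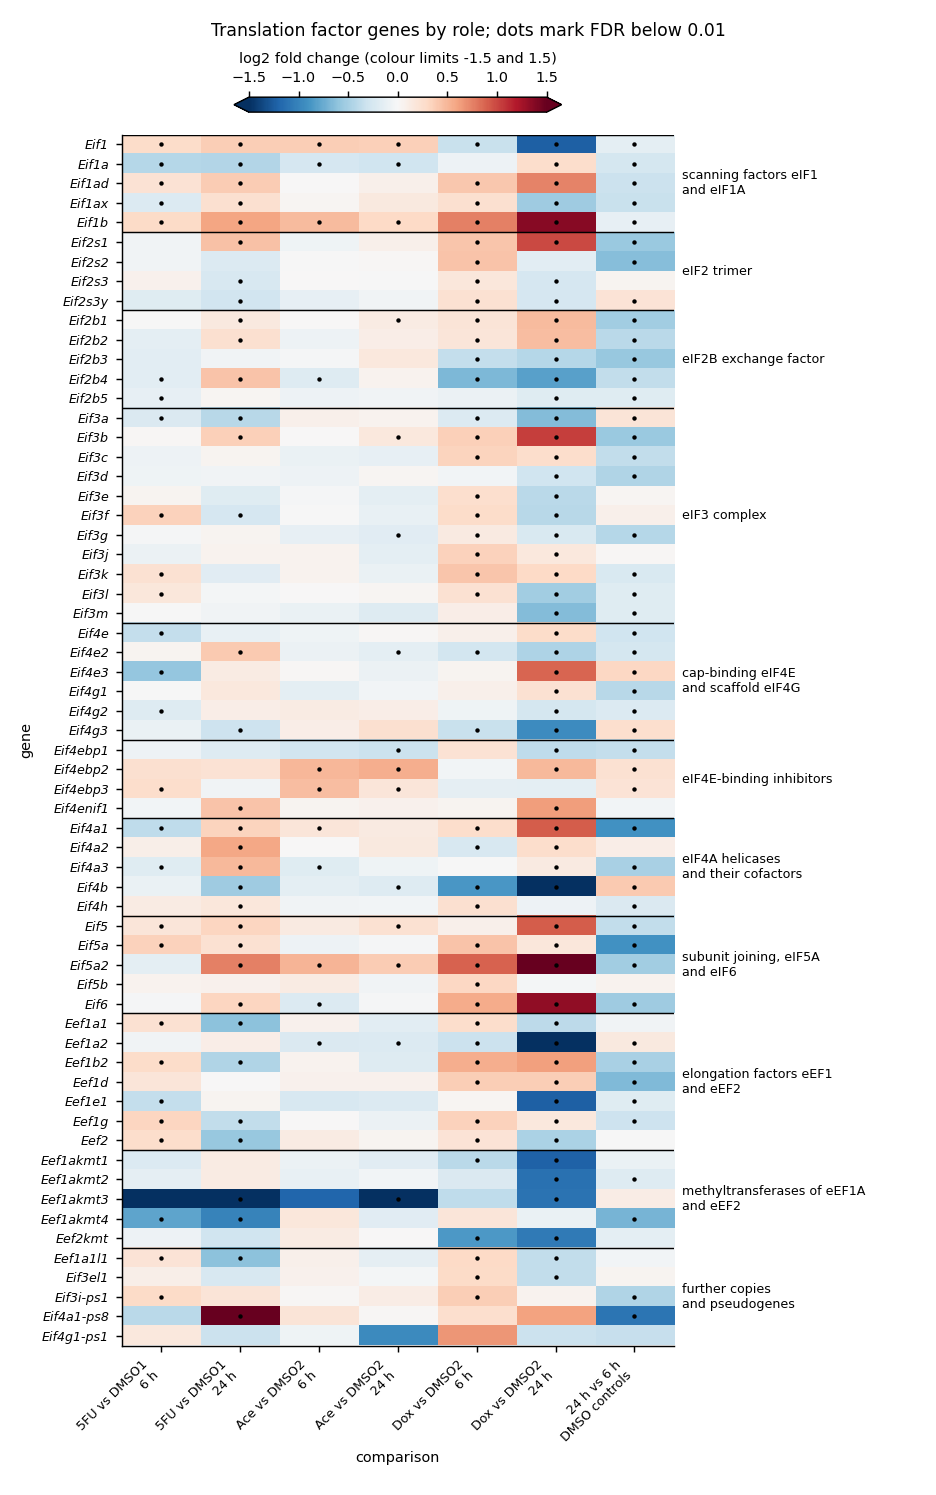
Log2 fold change (colour, limits -1.5 and 1.5) of each member (rows, grouped by role) in the 6 drug comparisons and in 24 h against 6 h of the DMSO controls (columns), with a dot where the FDR is below 0.01. The column of Dox at 24 h holds 54 dots, and those of Ace hold 11 and 15.

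Markers of cardiomyocytes and of other cell types moved with the drugs, and their part in the results below was not tested. Of 8 cardiomyocyte markers, 7 fell in Dox at 24 h (Myh6 by 4.13 and Tnnt2 by 0.21 on the log2 scale), and the summed level of all 8 was 11706 to 15463 CPM against 34116 to 46077 in DMSO2. All 7 fibroblast markers fell as well (1913 to 4058 against 15076 to 18875 CPM), as did the 6 endothelial markers measured (18.7 to 42.2 against 214 to 284 CPM; Cldn5 had 0 to 3 counts per Dox library) and 6 of 7 macrophage markers (27.7 to 38.5 against 55.6 to 70.1 CPM), while 3 of 4 smooth muscle markers rose (307 to 1579 against 433 to 607 CPM). At 24 h all 7 fibroblast markers fell with 5FU (5156 to 5826 CPM against 9958 to 19887 in DMSO1) and with Ace (7236 to 9264 CPM). Of the 8 cardiomyocyte markers, 5 fell and 1 rose with 5FU at 24 h, and their sum was 22266 to 24476 CPM against 30855 to 38578 in DMSO1, with no overlap. At 6 h Dox lowered all 6 endothelial and 5 of 7 fibroblast markers, raised 4 and lowered 2 of the 8 cardiomyocyte markers and raised all 4 smooth muscle markers. The sums of cardiomyocyte markers overlapped at 6 h between Dox (33477 to 43641 CPM) and DMSO2 (35707 to 41709 CPM). In bulk RNA fewer cells of a type and less RNA per cell cannot be told apart. Library totals ran from 14332827 to 25738297. The libraries least like their group, by correlation of log2 CPM with the mean of the rest, included library 1 of DMSO1 at 24 h, library 7 of Dox at 24 h and library 1 of 5FU at 6 h. Without them in turn the called members numbered 36 for 5FU at 24 h, 52 for Dox at 24 h and 24 for 5FU at 6 h.

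The scanning factors eIF1 and eIF1A, which hold the small subunit open while it searches for the start codon, included Eif1, which fell with Dox and rose with 5FU and Ace. Eif1, which guards the choice of start codon, had 338 to 406 (median 373) CPM in DMSO2, 459.7 to 502 (median 479.9) in Ace and 269 to 369 (median 284) in Dox at 6 h. At 24 h it had 340.5 to 385 (median 358) CPM in DMSO2, 446 to 485 (median 461) in Ace and 128 to 176 (median 150.0) in Dox. In DMSO1 and 5FU the levels were 375 to 479.8 (median 452) and 474 to 670.4 (median 519.9) CPM at 6 h and 348 to 417 (median 373) and 468 to 515 (median 479) CPM at 24 h. Eif1 thus stood above the controls in Ace at both times and in 5FU at 24 h with no overlap, overlapped with them in 5FU at 6 h and, through library 4 of Dox alone, in Dox at 6 h, and lay below them in all 7 Dox libraries at 24 h. It rose with 5FU (log2 fold change 0.28 ± 0.06 (SE), FDR = 1.97e-04 at 6 h and log2 fold change 0.37 ± 0.07 (SE), FDR = 1.44e-06 at 24 h) and with Ace (log2 fold change 0.37 ± 0.06 (SE), FDR = 2.11e-06 and log2 fold change 0.36 ± 0.06 (SE), FDR = 1.23e-06). It fell with Dox at 6 h (log2 fold change -0.34 ± 0.06 (SE), FDR = 1.36e-06) and at 24 h (log2 fold change -1.23 ± 0.06 (SE), FDR = 9.17e-28). The Dox effect differed from the 5FU effect by -0.62 at 6 h (FDR = 1.62e-08) and -1.59 at 24 h (FDR = 7.59e-25), and from the Ace effect by -0.70 (FDR = 1.38e-15) and -1.58 (FDR = 2.69e-33). The difference from 5FU also holds the difference in DMSO dose, and Eif1 was higher in DMSO1 than in DMSO2 at 6 h. In a fit of the compared groups alone the rise in 5FU at 6 h missed the threshold (FDR = 0.0133).

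Eif1b, the paralog of Eif1, rose with every drug at both times. It had 23.3 to 30.1 (median 26.8) CPM in DMSO2, 35.2 to 39.4 (median 35.8) in Ace and 41.2 to 48.1 (median 45.6) in Dox at 6 h, and 25 to 29.3 (median 27.5), 31.4 to 35.5 (median 33) and 65.3 to 76.9 (median 68.5) CPM at 24 h. DMSO1 and 5FU had 24.6 to 34.1 (median 30.5) and 33.6 to 39.95 (median 36.2) CPM at 6 h and 23.7 to 26.3 (median 24.8) and 36.4 to 39.2 (median 37.4) CPM at 24 h. The drug and control libraries overlapped for 5FU at 6 h and were apart in the other 5 comparisons. The largest rise was in Dox at 24 h (log2 fold change 1.37 ± 0.05 (SE), FDR = 4.72e-34), after 0.76 at 6 h (FDR = 2.19e-20). The other rises were 0.29 and 0.59 in 5FU (FDR = 1.47e-05 and 8.74e-14) and 0.47 and 0.30 in Ace (FDR = 1.24e-10 and 1.92e-06). Within a library, the log2 ratio of Eif1b to Eif1 counts ran from -3.97 to -3.71 in DMSO2 and from -2.94 to -2.58 in Dox at 6 h, and from -3.84 to -3.58 and from -1.42 to -0.74 at 24 h. The mean ratio was 2.15 times that of DMSO2 at 6 h and 6.06 times at 24 h. Ratios within a library show unequal change and do not depend on the scaling of totals.

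The genes of eIF1A, which binds beside eIF1 on the small subunit, did not move as a pair. Eif1a had 52.8 to 76.2 (median 65.5) CPM in DMSO1 and 42.6 to 52.5 (median 47.9) in 5FU at 6 h, and 41.1 to 52.8 (median 48.9) and 30.7 to 37.5 (median 35.4) at 24 h. It fell with 5FU (log2 fold change -0.43 ± 0.07 (SE), FDR = 4.45e-07 and log2 fold change -0.44 ± 0.07 (SE), FDR = 3.15e-07) with no overlap at either time, and by 0.25 and 0.29 on the log2 scale with Ace (FDR = 0.00213 and 1.49e-04). In Dox at 24 h it had 55.5 to 65.5 (median 60.9) CPM against 44 to 55.8 (median 50.2) in DMSO2, a rise with overlap through library 4 of each group (log2 fold change 0.26 ± 0.07 (SE), FDR = 2.52e-04). Eif1ax moved the other way in 5FU at 24 h (0.24, FDR = 1.30e-04) and in Dox at 24 h (log2 fold change -0.53 ± 0.05 (SE), FDR = 1.33e-14), with 79.9 to 100.4 CPM in Dox and 123 to 136 in DMSO2. Reads of these close paralogs may be shared in the counting, so their split is uncertain. Eif1ad, an eIF1A-domain protein, rose in 5FU and Dox at both times (log2 fold changes 0.22, 0.38, 0.41 and 0.74).

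**Figure D2:**
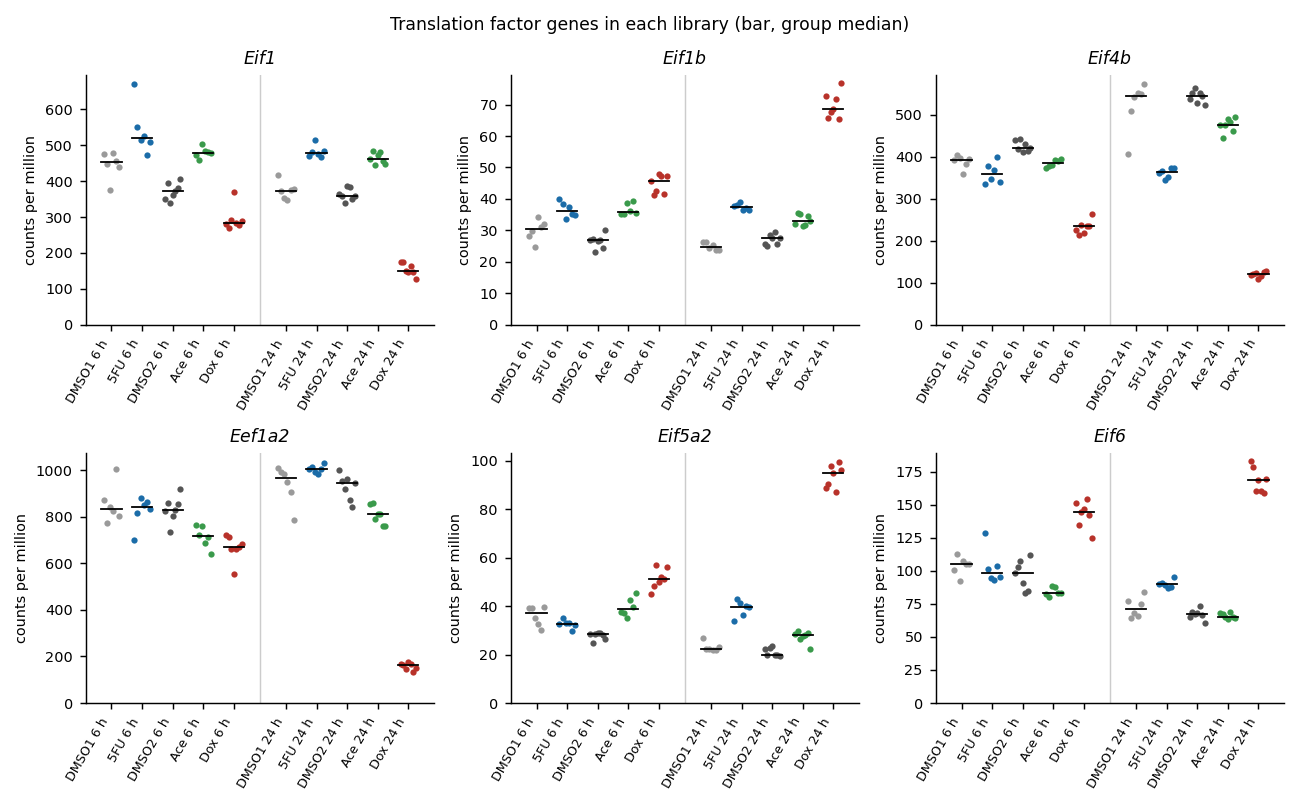
CPM (linear axes from 0) of 6 members in each of the 65 libraries, by group, with the group median as a bar. At 24 h the 7 Dox libraries lie apart from those of DMSO2 in all 6 panels, below them for Eif1, Eif4b and Eef1a2 and above them for Eif1b, Eif5a2 and Eif6.

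All 4 genes of the eIF2 trimer rose with Dox at 6 h (all genes: 31.5% higher), but only Eif2s1 stayed higher at 24 h (all genes: 40.4% higher). The log2 fold changes at 6 h were 0.41 (Eif2s1), 0.42 (Eif2s2), 0.17 (Eif2s3) and 0.23 (Eif2s3y). How the rises of Eif2s2, Eif2s3 and Eif2s3y depend on the scaling was not checked. Eif2s1 encodes eIF2α, the subunit that stress kinases phosphorylate. It had 80.8 to 99.3 (median 85.6) CPM in DMSO2 and 107 to 119.6 (median 116) in Dox at 6 h, and 58.3 to 68.3 (median 62) and 113 to 148 (median 124) at 24 h, with no overlap at either time (log2 fold change 0.41 ± 0.06 (SE), FDR = 2.55e-09 and log2 fold change 0.99 ± 0.06 (SE), FDR = 1.24e-24). In 5FU it overlapped with DMSO1 at 6 h (87.1 to 110.3 (median 90.4) against 91 to 113 (median 95.9) CPM) and was above it at 24 h (78.6 to 93 (median 85.5) against 54.5 to 71.1 (median 63.4) CPM, log2 fold change 0.43 ± 0.06 (SE), FDR = 1.03e-08). With Ace the values of the 4 genes lay between -0.12 (Eif2s3y at 6 h) and 0.08 (Eif2s1 at 24 h), and none passed the threshold. Eif2s3 and Eif2s3y, the γ subunit on the X and Y chromosomes, both rose with Dox at 6 h and fell at 24 h. The log2 fold changes of Eif2s3 were 0.17 and -0.25 and those of Eif2s3y 0.23 and -0.25. Reads can be shared between them. Eif2s2, the β subunit, rose at 6 h (0.42, FDR = 1.79e-06) and had -0.16 at 24 h (FDR = 0.0469), which missed the threshold.

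The 5 subunits of eIF2B, the exchange factor of eIF2, split in Dox. Eif2b1 and Eif2b2 rose at 6 h and 24 h (log2 fold changes 0.19 and 0.18, then 0.48 and 0.46). Eif2b3 and Eif2b4 fell at both times. Eif2b4, the δ subunit, had 51.6 to 58.2 (median 55.7) CPM in DMSO2 and 30.7 to 39.1 (median 34.8) in Dox at 6 h and 41.2 to 45.1 (median 42.1) and 21.1 to 26.9 (median 23.6) at 24 h, with no overlap (log2 fold change -0.67 ± 0.05 (SE), FDR = 1.24e-20 and log2 fold change -0.82 ± 0.05 (SE), FDR = 9.31e-25). In 5FU at 24 h it rose instead, from 37.8 to 49.2 (median 44.1) to 56.5 to 60.8 (median 58.3) CPM (log2 fold change 0.43 ± 0.05 (SE), FDR = 1.77e-11), and the effects of the drugs differed by -1.24 (FDR = 1.77e-25). At 6 h it fell slightly with 5FU (-0.16, FDR = 0.00382, and 0.0119 without library 3 of 5FU) and with Ace (-0.20, FDR = 4.16e-04). Eif2b5, the catalytic ε subunit, had 67.1 to 76.7 (median 73.2) CPM in DMSO2 and 61.7 to 68.1 (median 63.7) in Dox at 24 h, a small fall with overlap (log2 fold change -0.18 ± 0.04 (SE), FDR = 1.17e-05). It also fell in 5FU at 6 h, by 0.13 (FDR = 0.0036), with 67.1 to 80.8 (median 74.2) CPM against 75.9 to 84.8 (median 80.6). This call was lost without library 4 or 6 of 5FU or library 4 of DMSO1 (FDR = 0.0189, 0.022 and 0.0147). The log2 ratio of Eif2b1 to Eif2b4 counts was -0.24 to -0.06 in DMSO2 and 0.52 to 0.98 in Dox at 6 h, and -0.41 to -0.15 and 0.82 to 1.20 at 24 h.

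**Figure D3:**
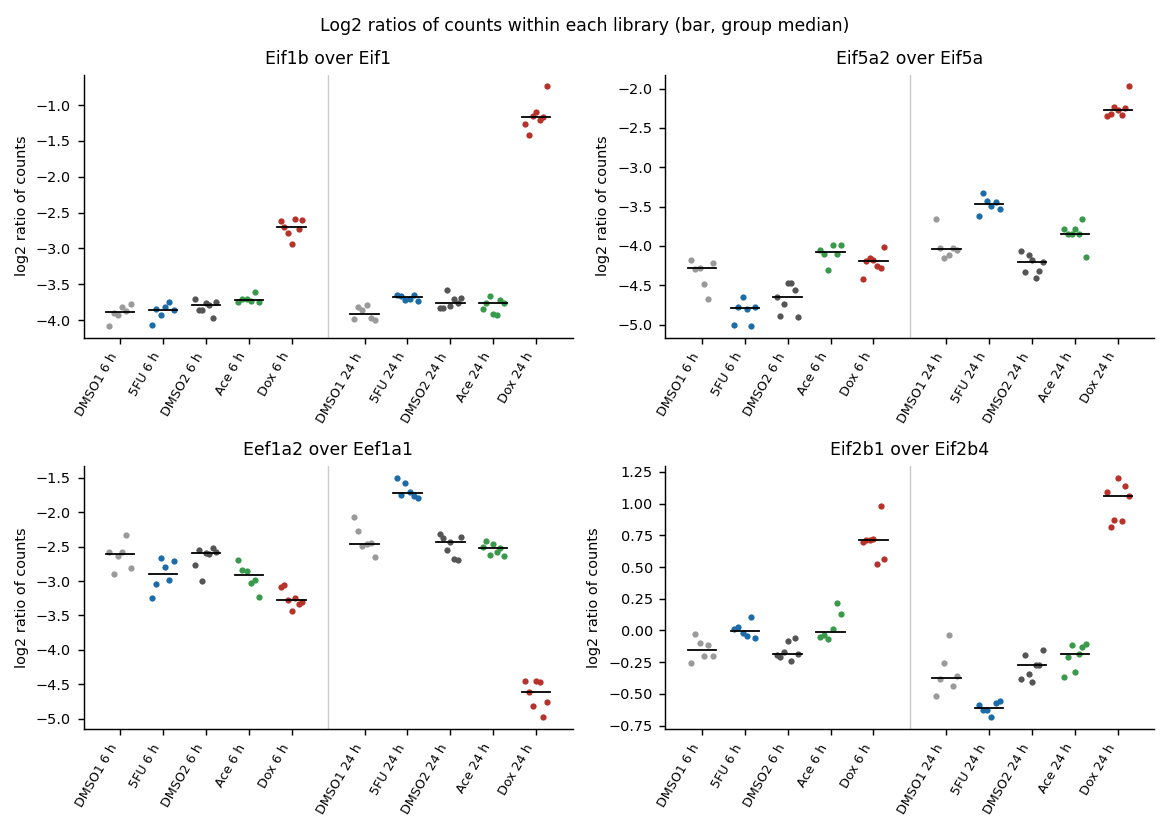
Log2 ratio of the counts of 2 genes within each of the 65 libraries, by group, with the group median as a bar. In Dox at 24 h Eif1b over Eif1 (-1.42 to -0.74), Eif5a2 over Eif5a (-2.34 to -1.97) and Eif2b1 over Eif2b4 (0.82 to 1.20) lie above DMSO2, and Eef1a2 over Eef1a1 (-4.98 to -4.46) lies below it.

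The eIF3 complex, the platform that binds the small subunit and eIF4G, was represented by 11 subunit genes. With Dox 8 rose and 1 fell at 6 h (all genes: 31.5% higher and 32.7% lower). At 24 h 4 rose and 7 fell (all genes: 40.4% higher and 41% lower). Eif3b, a core subunit, had 181 to 197 (median 189) CPM in DMSO2 and 362 to 417 (median 386) in Dox at 24 h and rose with no overlap (log2 fold change 1.03 ± 0.04 (SE), FDR = 9.06e-33), after 0.36 at 6 h. Eif3a, also a core subunit, fell by 0.20 at 6 h and by 0.65 at 24 h (FDR = 3.73e-14), while Eif3c rose by 0.33 and 0.27. Eif3m and Eif3l fell by 0.65 and 0.52 at 24 h. Subunit genes of this complex thus moved in opposite directions in the same libraries. The 4 subunits Eif3e, Eif3f, Eif3g and Eif3l switched from a rise at 6 h to a fall at 24 h, and for each the difference between the times passed the threshold. Whether the 6 h rises of Eif3e, Eif3g and Eif3l hold with scaling by library size only was not checked. Eif3f had 244 to 285 (median 264) CPM in DMSO2 and 296 to 340.3 (median 316) in Dox at 6 h, and 265 to 294 (median 275) and 192 to 227 (median 207) at 24 h (log2 fold change 0.28 ± 0.05 (SE), FDR = 4.67e-07 and log2 fold change -0.41 ± 0.05 (SE), FDR = 3.45e-12). The same gene switched in 5FU, from 0.35 at 6 h (FDR = 2.34e-08) to -0.25 at 24 h (FDR = 1.65e-05), with 263 to 352 (median 314) and 200.4 to 236 (median 216) CPM against 235 to 260.2 (median 244) and 239 to 284 (median 261) in DMSO1. For the eIF3 genes as a whole 5FU gave 3 higher and 1 lower at 6 h (all genes: 23.4% and 24.5%). At 24 h 5FU gave 1 higher and 2 lower (all genes: 28% and 27.8%), and Ace gave 1 in each direction (all genes: 18.2% and 19.1%). The values of the 11 genes with Ace at 6 h lay between -0.12 and 0.07.

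Among the cap-binding and scaffold genes of eIF4F, Eif4e3 rose most in Dox at 24 h. Eif4e, the main cap-binding protein, had 64.7 to 82.8 (median 72.9) CPM in DMSO2 and 85.8 to 92.2 (median 87.4) in Dox at 24 h (log2 fold change 0.28 ± 0.05 (SE), FDR = 6.73e-07), while at 6 h it overlapped (0.08, FDR = 0.157). In 5FU at 6 h it had 68.1 to 82.8 (median 69.8) CPM against 81.5 to 109 (median 92.8) and fell by 0.35 on the log2 scale (FDR = 5.18e-08). Eif4e3, an eIF4E family member, had 22.6 to 24.7 (median 23) CPM in DMSO2 and 38.5 to 49.1 (median 41.9) in Dox at 24 h (log2 fold change 0.87 ± 0.07 (SE), FDR = 4.81e-19). In 5FU at 6 h it was below DMSO1, with 10.0 to 13.7 (median 11.9) against 14.3 to 19.5 (median 18.3) CPM (log2 fold change -0.58 ± 0.08 (SE), FDR = 1.81e-09). Eif4e2, which encodes the cap-binding repressor 4EHP, went the other way. It fell with Dox at 24 h by 0.47 (FDR = 2.76e-20), with 48.5 to 58.4 CPM against 72.1 to 76.7 in DMSO2. With 5FU at 24 h it rose by 0.39 (FDR = 5.42e-15), with 89.5 to 94 CPM against 66.5 to 73.8 in DMSO1. With Ace at 24 h it fell by 0.15, and the effect of Ace differed from that of 5FU by -0.54 (FDR = 2.34e-14).

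The scaffolds also parted in Dox. Eif4g1, the main scaffold, had 473 to 628 (median 564) CPM in DMSO2 and 459 to 673 (median 591) in Dox at 6 h and 400.2 to 481 (median 458) and 471 to 566 (median 553) at 24 h, with overlap at both times, and passed the threshold only at 24 h (log2 fold change 0.23 ± 0.06 (SE), FDR = 7.59e-04). Eif4g3 fell with Dox by 0.33 at 6 h (FDR = 0.00274) and by 0.95 at 24 h (FDR = 4.16e-13), with 48.2 to 61.6 CPM against 90.3 to 116 in DMSO2 at 24 h. The log2 ratio of Eif4g3 to Eif4g1 counts was -2.24 to -1.99 in DMSO2 and -3.41 to -3.09 in Dox at 24 h. In 5FU at 24 h this ratio was -2.44 to -2.25, against -2.05 to -1.67 in DMSO1. Eif4g2, which encodes the eIF4G-like protein DAP5, fell by 0.20 in 5FU at 6 h and by 0.26 in Dox at 24 h.

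Among the inhibitors that bind eIF4E, Ace raised Eif4ebp2 and Eif4ebp3 at both times. Eif4ebp2 had 36.2 to 51.5 (median 47.7) CPM in DMSO2 and 53.5 to 72.7 (median 65.9) in Ace at 6 h, and 41 to 58.2 (median 53.2) and 71.9 to 83.6 (median 77.6) at 24 h, with no overlap at either time (log2 fold change 0.50 ± 0.09 (SE), FDR = 3.22e-06 and log2 fold change 0.55 ± 0.08 (SE), FDR = 1.23e-07). Dox gave 39.1 to 48.8 (median 46) CPM at 6 h (-0.04, FDR = 0.708) and 63.4 to 84.7 (median 74.8) at 24 h, a rise (log2 fold change 0.49 ± 0.08 (SE), FDR = 4.06e-07). The effect of Dox was below that of Ace at 6 h (difference -0.54 ± 0.09 (SE), FDR = 2.29e-07), and at 24 h the difference was -0.06 ± 0.08 (SE, FDR = 0.482). With 5FU the values were 0.24 and 0.22 (FDR = 0.0225 and 0.0309), and the difference of Ace from 5FU missed the threshold at 6 h (FDR = 0.0896) and at 24 h (FDR = 0.0238). In Ace the level of Eif4ebp1, the best known 4E-BP, was below DMSO2 in every library, with 83.2 to 97 (median 92.8) CPM against 102 to 127 (median 113) at 6 h (-0.29, FDR = 0.012, above the threshold) and 76.2 to 86 (median 80.9) against 95.9 to 109.6 (median 99.4) at 24 h (log2 fold change -0.33 ± 0.09 (SE), FDR = 0.00256). It also fell in Dox at 24 h, to 67.9 to 85.1 (median 76.2) CPM (log2 fold change -0.39 ± 0.09 (SE), FDR = 1.43e-04). In 5FU at 6 h it had 100.2 to 220.3 (median 112) CPM, against 112 to 148 (median 138) in DMSO1 (-0.08, FDR = 0.523). Its highest value there was library 1, and the other 5 libraries had 100.2 to 115 CPM. Without library 1 the value was -0.30 (FDR = 2.91e-04). Eif4ebp3 rose with Ace at both times (0.46 and 0.18) and with 5FU at 6 h (0.26), and Eif4enif1, the eIF4E transporter, rose with 5FU (0.43) and Dox (0.63) at 24 h. The mean ratio of Eif4ebp2 to Eif4ebp1 was 1.73 times that of DMSO2 in Ace at 6 h, 1.84 times in Ace at 24 h and 1.83 times in Dox at 24 h.

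Of the helicases and their cofactors, Eif4a1 rose and Eif4b fell with Dox. Eif4b encodes the cofactor that raises the activity of eIF4A and is itself a TOP mRNA. It had 411 to 444 (median 422) CPM in DMSO2 and 213 to 264 (median 234) in Dox at 6 h, and 525 to 565 (median 544) and 109 to 129 (median 121) at 24 h. The groups were far apart at both times (log2 fold change -0.87 ± 0.05 (SE), FDR = 1.72e-25 and log2 fold change -2.18 ± 0.05 (SE), FDR = 1.78e-46), and the fall deepened from 6 to 24 h (difference -1.31 ± 0.07 (SE), FDR = 1.42e-26). In 5FU at 24 h it had 345 to 374 (median 363) CPM against 407 to 573 (median 546) (log2 fold change -0.53 ± 0.05 (SE), FDR = 2.83e-14) and in Ace at 24 h 444 to 495 (median 476) (log2 fold change -0.19 ± 0.05 (SE), FDR = 3.78e-04). At 6 h neither 5FU (-0.10, FDR = 0.0803) nor Ace (-0.15, FDR = 0.0103) passed. Scaled by library size only, the fall in Ace at 24 h missed the threshold (FDR = 0.0191).

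Eif4a1, the main eIF4A helicase, had 449 to 507 (median 482) CPM in DMSO2, 502 to 588 (median 549.9) in Ace and 541 to 614 (median 569.9) in Dox at 6 h and 266 to 317 (median 283), 306 to 325 (median 314) and 482 to 577 (median 550.5) at 24 h. The rise in Dox at 24 h was clear (log2 fold change 0.91 ± 0.05 (SE), FDR = 3.11e-25). That at 6 h was small (0.27, FDR = 4.37e-06) and with scaling by library size only it was 0.11 (FDR = 0.0145). In 5FU it fell at 6 h, to 401 to 458 (median 417) CPM from 460.1 to 659 (median 553) (log2 fold change -0.38 ± 0.05 (SE), FDR = 2.07e-08), and rose at 24 h, to 315 to 345 (median 323) from 235 to 284 (median 257) (log2 fold change 0.33 ± 0.06 (SE), FDR = 3.68e-07). The difference between these times was 0.71 (FDR = 1.68e-11). Eif4a2, the paralog, rose with 5FU at 24 h, to 375 to 423 (median 392) CPM from 232 to 332 (median 253) (log2 fold change 0.58 ± 0.06 (SE), FDR = 4.36e-13). In Dox it fell at 6 h, with 171 to 199.9 (median 187) CPM against 207 to 227 (median 219) (-0.24, FDR = 9.76e-05), and rose at 24 h, with 252 to 328 (median 263) against 213 to 247 (median 227) (0.26, FDR = 1.74e-05). Eif4a3, the helicase of the exon junction complex, rose with 5FU at 24 h by 0.49 (FDR = 4.42e-15).

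The genes of subunit joining, eIF5A and eIF6 included Eif5a2, with the largest rise of any member in Dox at 24 h. Of the 5 genes 4 rose with Dox at each time (all genes: 31.5% higher at 6 h and 40.4% at 24 h) and 4 with 5FU at 24 h (all genes: 28% higher). Eif5a2, the second gene of the hypusine-bearing factor eIF5A, had 24.8 to 29 (median 28.4) CPM in DMSO2 and 45.1 to 56.9 (median 51.1) in Dox at 6 h, and 19.5 to 23.5 (median 19.9) and 87.1 to 99.3 (median 95) at 24 h. This was a 4.43-fold rise at 24 h (log2 fold change 2.15 ± 0.06 (SE), FDR = 5.65e-40), after 0.89 at 6 h (FDR = 4.16e-20). In 5FU it had 34 to 43 (median 39.7) CPM at 24 h against 21.8 to 26.8 (median 22.3) (log2 fold change 0.76 ± 0.07 (SE), FDR = 5.54e-15), while at 6 h the groups overlapped (-0.14, FDR = 0.0569). In Ace it had 35.2 to 45.3 (median 38.7) CPM at 6 h (log2 fold change 0.51 ± 0.06 (SE), FDR = 1.41e-09) and 22.2 to 29.7 (median 27.9) at 24 h (log2 fold change 0.38 ± 0.06 (SE), FDR = 1.39e-06), with an overlap at 24 h through library 7 of Ace. Eif5a2 was also higher in DMSO1 than in DMSO2 at 6 h (log2 fold change 0.38 ± 0.06 (SE), FDR = 7.95e-06), so its level already differed between the controls there.

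Eif5a, the main eIF5A gene, moved less. It had 639 to 787 (median 722) CPM in DMSO2 and 883 to 1013 (median 963) in Dox at 6 h (log2 fold change 0.43 ± 0.05 (SE), FDR = 1.66e-11), and 361 to 424 (median 397) and 377 to 472 (median 451) at 24 h (0.17, FDR = 0.00173). In 5FU it rose from 679 to 774 (median 737) to 829 to 1040.4 (median 939) CPM at 6 h (log2 fold change 0.34 ± 0.05 (SE), FDR = 1.16e-07) and from 339 to 396 (median 371) to 408 to 456 (median 433) at 24 h (0.22, FDR = 2.31e-04). The mean ratio of Eif5a2 to Eif5a was 3.95 times that of DMSO2 in Dox at 24 h. Eif6, which keeps the large subunit from joining too early, had 83.3 to 112 (median 98) CPM in DMSO2 and 125 to 154 (median 144) in Dox at 6 h (log2 fold change 0.56 ± 0.06 (SE), FDR = 6.17e-13), and 60.3 to 73.2 (median 67) and 159 to 183 (median 169) at 24 h (log2 fold change 1.33 ± 0.06 (SE), FDR = 2.59e-30). In 5FU at 24 h it rose to 87.2 to 95.2 (median 89.6) CPM from 64 to 83.6 (median 71.3) (log2 fold change 0.32 ± 0.06 (SE), FDR = 1.72e-05). In Ace at 6 h it fell slightly, with 79.9 to 88.6 (median 83.1) CPM (log2 fold change -0.21 ± 0.06 (SE), FDR = 0.00444). That fall missed the threshold when any of 7 libraries was left out, namely 1, 2 or 6 of Ace or 1, 2, 3 or 7 of DMSO2 (FDR up to 0.0222). It also missed the threshold in a fit of the compared groups alone (FDR = 0.0136). Eif5, which activates the GTPase of eIF2 at the start codon, rose with Dox at 24 h by 0.91 (FDR = 6.20e-27), with 379 to 471 CPM against 202 to 226 in DMSO2, and Eif5b rose with Dox at 6 h (0.31).

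With Dox at 24 h the muscle form of eEF1A fell most among the elongation factors. Eef1a2 had 735 to 919 (median 827) CPM in DMSO2, 639.5 to 764 (median 718) in Ace and 553 to 722 (median 669) in Dox at 6 h, and 842 to 1002 (median 943), 758 to 859 (median 812) and 134 to 175 (median 165) at 24 h. The fall with Dox at 6 h was modest (log2 fold change -0.32 ± 0.06 (SE), FDR = 1.77e-06) and at 24 h every Dox library lay far below every control (log2 fold change -2.55 ± 0.06 (SE), FDR = 1.55e-44). Beside it, 7 of 8 cardiomyocyte markers fell in the same libraries, with a median log2 fold change of -1.75. With 5FU Eef1a2 overlapped with DMSO1 at 6 h (700.2 to 879.7 (median 841) against 772 to 1003 (median 834) CPM, -0.05, FDR = 0.502) and at 24 h (982 to 1029 (median 1003) against 787 to 1009.9 (median 967) CPM, 0.10, FDR = 0.171). In those 5FU libraries at 24 h 5 of 8 cardiomyocyte markers fell and 1 rose (median log2 fold change -0.37). With Ace it fell by 0.22 at 6 h (FDR = 0.00222) and by 0.20 at 24 h (FDR = 0.00305). These small falls were lost without library 6 of Ace at 6 h (FDR = 0.0163) and without library 6 of Ace or library 1 of DMSO2 at 24 h (FDR = 0.013 and 0.0104). With scaling by library size only the fall in Ace at 24 h was -0.14 and also missed the threshold (FDR = 0.062). The mean ratio of Eef1a2 to Eef1a1 moved by -2.16 on the log2 scale in Dox at 24 h and by 0.72 in 5FU at 24 h, where Eef1a1 fell.

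Eef1a1, the widely expressed form, had 4914 to 5769 (median 5212) CPM in DMSO1 and 5431 to 6814 (median 6289) in 5FU at 6 h, and 4225 to 5551 (median 4937) and 2831 to 3576 (median 3292) at 24 h. It overlapped with the control at 6 h and lay wholly below it at 24 h (log2 fold change 0.23 ± 0.06 (SE), FDR = 0.00127 and log2 fold change -0.62 ± 0.06 (SE), FDR = 1.62e-13). In Dox it rose to 5935 to 6768 (median 6259.9) CPM at 6 h from 4842 to 5858 (median 5033) (0.27, FDR = 3.19e-05) and fell to 3714 to 4215 (median 4043) at 24 h from 4829 to 5589 (median 5174) (-0.39, FDR = 5.62e-09). Eef2, the translocase, followed the same course. It had 3368 to 3682 (median 3551) CPM in DMSO1 and 3849 to 4579 (median 4213) in 5FU at 6 h, and 2659.7 to 3963 (median 3526) and 2247 to 2408 (median 2344) at 24 h (log2 fold change 0.26 ± 0.05 (SE), FDR = 9.59e-06 and log2 fold change -0.56 ± 0.05 (SE), FDR = 2.57e-15). In Dox it rose to 3921 to 4338 (median 4065) CPM at 6 h from 3309.6 to 3781 (median 3528) (0.20, FDR = 8.53e-05) and fell to 2549 to 2662 (median 2582) at 24 h from 3415 to 3759.8 (median 3625) (-0.48, FDR = 1.21e-14). The 6 h rises were small and sensitive to scaling: by library size only, Dox gave 0.11 for Eef1a1 (FDR = 0.0384), 0.05 for Eef2 (FDR = 0.336) and 0.12 for Eif3f (FDR = 0.0106), and 5FU gave 0.15 for Eef1a1 (FDR = 0.015). In a fit of the compared groups alone Eef1a1 in 5FU at 6 h also missed the threshold (FDR = 0.0271).

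The exchange factor subunits of eEF1B set Dox apart from 5FU at 24 h. Eef1g, the γ subunit, had 1212 to 1358 (median 1269) CPM in DMSO1 and 1416 to 1864 (median 1593) in 5FU at 6 h, and 970.4 to 1119 (median 1025) and 720.0 to 865 (median 801) at 24 h (log2 fold change 0.32 ± 0.06 (SE), FDR = 9.11e-06 and log2 fold change -0.37 ± 0.06 (SE), FDR = 2.73e-07). In Dox it was above DMSO2 at 6 h (1508 to 1705 (median 1608) against 1139 to 1415 (median 1261) CPM, 0.34, FDR = 2.20e-07). At 24 h the Dox and DMSO2 groups overlapped (1018 to 1312 (median 1136) against 934 to 1080.3 (median 1049) CPM, 0.16, FDR = 0.00607), a call lost without library 1, 2 or 7 of DMSO2 (FDR up to 0.0209). A fit of the compared groups alone lost this call too (FDR = 0.0135). Eef1b2, the nucleotide exchange subunit, had 326 to 412 CPM in Dox and 209 to 268 in DMSO2 at 24 h (0.62, FDR = 1.05e-11), but 142 to 185 in 5FU and 206 to 246 in DMSO1 (-0.46, FDR = 9.50e-07). The Dox and 5FU effects at 24 h differed by 1.08 for Eef1b2 (FDR = 5.92e-14) and by 0.54 for Eef1g (FDR = 4.13e-08). Eef1e1, a scaffold protein of the multi-tRNA synthetase complex, had 29.4 to 35.8 (median 31) CPM in DMSO2 and 12.3 to 15 (median 13.4) in Dox at 24 h (log2 fold change -1.23 ± 0.08 (SE), FDR = 2.61e-21), while at 6 h the groups overlapped (0.02, FDR = 0.785). In 5FU at 6 h it fell by 0.36 with overlap (FDR = 2.34e-04), a call that missed the threshold in a fit of the compared groups alone (FDR = 0.0154).

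Of the 9 genes listed as known TOP mRNAs, 8 had a row, and they include Eif3e, Eif3f and Eif4b beside the elongation factors. With 5FU 5 of 8 rose at 6 h (all genes: 23.4% higher) and 6 of 8 fell at 24 h (all genes: 27.8% lower). Their median log2 fold change was 0.24 at 6 h and -0.41 at 24 h, against -0.05 and 0.10 in the other 54 members and 0.00 and -0.01 in all genes. With Dox 7 rose and 1 fell at 6 h (all genes: 31.5% higher and 32.7% lower; median 0.27, other members 0.15), and at 24 h 3 rose and 5 fell (all genes: 40.4% higher and 41% lower; median -0.40, other members -0.12). With scaling by library size only the rises of Eef1a1, Eef2 and Eif3f at 6 h missed the threshold, with the values given above. The other rises with Dox at 6 h, apart from that of Eef1g, were not checked in this way. With Ace the values ran from -0.15 (Eif4b) to 0.13 (Eef2) at 6 h, and at 24 h Eif4b was called lower. The list was written from general knowledge with earlier results of these data in view, so its direction is a description and no independent test. In 5FU 10 members switched sign between the times with a tested difference: Eef1a1, Eef1a1l1, Eef1b2, Eef1g, Eef2 and Eif3f went from higher to lower, and Eif1ax, Eif2b4, Eif4a1 and Eif4a3 from lower to higher. Of the 6 h calls behind this count, that of Eef1a1l1 was lost with scaling by library size only (FDR = 0.0602), in a fit of the compared groups alone (FDR = 0.0393) and without library 1, 2 or 5 of 5FU or library 1, 3, 4 or 5 of DMSO1 (FDR up to 0.0412). That of Eef1a1 was lost under the first pair of settings, and that of Eif2b4 without library 3 of 5FU (FDR = 0.0119). Those of Eef1b2, Eif1ax and Eif4a3 were not checked in this way. The share of all genes that switched sign in 5FU is not given, so the count of 10 describes these members only.

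**Figure D4:**
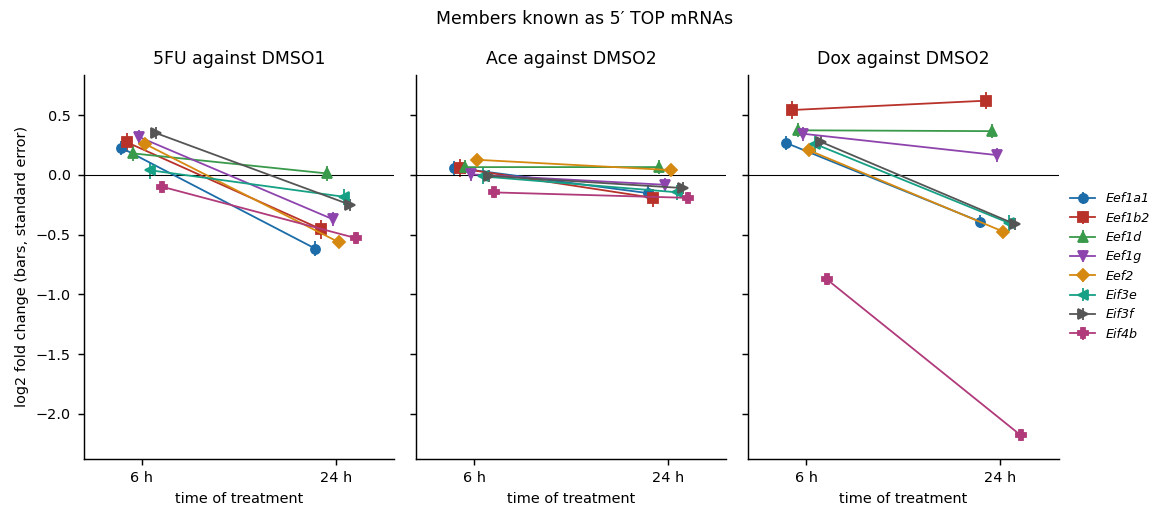
Log2 fold change against the drug's own control (vertical axis, bars are standard errors) of the 8 members known as TOP mRNAs at 6 and 24 h, in a panel per drug. In 5FU the points of 7 genes are above 0 at 6 h and those of 7 are below 0 at 24 h, in Ace the points lie between -0.19 (Eif4b at 24 h) and 0.13 (Eef2 at 6 h), and in Dox Eif4b reaches -2.18.

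Of the 5 methyltransferases that modify lysines of eEF1A and eEF2, 2 were called lower with Dox at 6 h (all genes: 32.7% lower) and 4 at 24 h (all genes: 41% lower). Eef1akmt4 was called at neither time (0.18, FDR = 0.184 and -0.10, FDR = 0.496). Eef1akmt1 had 10.3 to 13.4 (median 12.3) CPM in DMSO2 and 7.57 to 11.8 (median 8.58) in Dox at 6 h (log2 fold change -0.40 ± 0.09 (SE), FDR = 8.05e-05), and 9.89 to 13.3 (median 10.8) and 4.21 to 5.9 (median 4.51) at 24 h, with no overlap (log2 fold change -1.22 ± 0.10 (SE), FDR = 2.54e-18). Eef1akmt2 and Eef2kmt fell by 1.12 (FDR = 8.77e-17) and 1.06 (FDR = 2.00e-11) at 24 h. Eef2kmt was already lower at 6 h, with 1.73 to 4.29 CPM against 4.76 to 6.19 in DMSO2 (FDR = 5.27e-09). With 5FU Eef1akmt4 fell, by 0.79 at 6 h (2.21 to 4.13 against 4.24 to 6.67 CPM) and by 1.003 at 24 h (1.11 to 1.91 against 2.51 to 4.57 CPM). Eef1akmt3, which is among the 4 called in Dox at 24 h, had at most 15 counts in a library, and its calls are not read further.

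The further copies followed their partners where reads can be shared. Eef1a1l1 had 1471 to 1842 (median 1637) CPM in DMSO1 and 924 to 1206 (median 1090.3) in 5FU at 24 h (log2 fold change -0.61 ± 0.07 (SE), FDR = 2.42e-12), and its log2 ratio to Eef1a1 stayed between -1.65 and -1.48 in all 65 libraries. Eif3el1 and Eif3e had log2 fold changes of -0.37 and -0.40 in Dox at 24 h. The counts of such copies are uncertain. Eif3i-ps1 rose with 5FU (0.29) and Dox (0.37) at 6 h. The pseudogenes Eif4a1-ps8 and Eif4g1-ps1 reached at most 13 and 38 counts in a library, too few to describe.

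Between 6 and 24 h in the controls more members fell than rose. In DMSO1 and DMSO2 together 8 rose and 39 fell (75.8% called, against 64.6% of all genes), and 62.9% fell against 31.9% of all genes, of which 32.7% rose. The median log2 fold change was -0.22 in the members and 0.01 in all genes. All 5 eIF2B genes and all 5 scanning factor genes fell, as did 7 of 11 eIF3 genes and 4 of 5 genes of subunit joining, eIF5A and eIF6. Among the scanning factors the fall of Eif1b (-0.12, FDR = 0.00618) was lost with DESeq2 (FDR = 0.0148), with DESeq2 size factors (FDR = 0.013) and without any 1 of 9 libraries: library 3 of DMSO1 at 24 h, 4, 5 or 6 of DMSO1 at 6 h, 1, 2 or 6 of DMSO2 at 24 h and 1 or 7 of DMSO2 at 6 h (FDR up to 0.0229). Among members above the count minimum in every library Eif4a1 fell most, with 449 to 659 CPM at 6 h and 235 to 317 at 24 h over both controls (log2 fold change -0.91 ± 0.04 (SE), FDR = 4.90e-31). Eif5a fell from 639 to 787 CPM to 339 to 424 (log2 fold change -0.91 ± 0.04 (SE), FDR = 9.92e-32). Eif4b went the other way, from 359 to 444 CPM to 407 to 573 (log2 fold change 0.39 ± 0.03 (SE), FDR = 5.31e-16). Eef2 and Eef1a1 had values near 0 (-0.01 and -0.06, FDR = 0.896 and 0.22). Over the same time all 7 fibroblast markers rose, by 0.37 to 1.70, and their part was not tested. A drug effect at 24 h is therefore set on a control in which many members were lower than at 6 h.

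The controls differed from each other at 6 h. In DMSO1 9 members were higher than in DMSO2 and 0 were lower (14.5% called, against 16.5% of all genes, 9.87% higher and 6.6% lower), by 0.16 (Eif3c) to 0.38 (Eif5a2), with Eif2s2, Eef1e1, Eif1, Eif1a, Eif4a1, Eif1b and Eif3b between them. With scaling by library size only 2 were higher and 2 lower, and the median of all genes moved by -0.08. Markers of cell types differed as well, and their part was not tested: 3 of 8 cardiomyocyte and 3 of 4 smooth muscle markers were higher in DMSO1, and 5 of 6 endothelial (105 to 145 against 173 to 220.0 CPM) and 6 of 7 fibroblast markers (6480.4 to 10899 against 9667 to 14439 CPM) were lower. The count of 9 fell to 4 without library 2 of DMSO1 and to 5 without library 6, and to 6 without library 5 or 6 of DMSO2. At 24 h edgeR called 0 members (all genes: 0.433%, 0.137% higher and 0.295% lower), with 9 at an unadjusted p under 0.05, and the DESeq2 Wald test called 0. The 6 h values of 5FU and of the other drugs are therefore given against their own controls only.

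The time course differed between drugs. The effect at 24 h differed from that at 6 h for 45 members in Dox (16 higher, 29 lower, 72.6% against 64.8% of all genes), for 27 in 5FU (17 higher, 10 lower, 43.5% against 39.5%) and for 2 in Ace (Eif2b4 higher and Eif4ebp3 lower, 3.23% against 11.6%). In Dox 12 members switched from a called change in 1 direction to the other (share of all genes not given). Of these Eif4a2 went up and Eef1a1, Eef1a1l1, Eef2, Eif1ax, Eif2s3, Eif2s3y, Eif3e, Eif3el1, Eif3f, Eif3g and Eif3l went down. The 6 h calls of Eef1a1, Eef1a1l1, Eef2 and Eif3f among these were lost with scaling by library size only (FDR = 0.0384, 0.0164, 0.336 and 0.0106). Those of Eif1ax, Eif2s3, Eif2s3y, Eif3e, Eif3el1, Eif3g and Eif3l were not checked in this way. Their log2 fold changes at 6 h lay between 0.14 (Eif3g) and 0.29 (Eif3el1), and that scaling moved the median of all genes by -0.15 there. For the difference between times, scaling by library size only gave 19 higher and 20 lower members in Dox and moved the median of all genes by 0.20. Between drugs at the same time, the effect of Dox differed from that of 5FU for 26 members at 6 h and 40 at 24 h (41.9% and 64.5%, against 45.9% and 71.1% of all genes). Ace differed from 5FU for 9 and 24 (14.5% and 38.7%, against 30.9% and 37.3%), and Dox from Ace for 46 and 50 (74.2% and 80.6%, against 62.1% and 80.6%). Members called in opposite directions by Dox and 5FU with a tested difference numbered 3 at 6 h (Eif1ax and Eif4a1 higher in Dox, Eif1 lower) and 7 at 24 h (Eef1b2, Eef1g and Eif1a higher in Dox, Eif1, Eif1ax, Eif2b4 and Eif4e2 lower). The share of all genes with such opposite calls is not given. Over the 6 drug comparisons 1 member was called in none and 2 in all (shares of all genes not given). Those 2 were Eif1, with 4 rises and 2 falls, and Eif1b, with 6 rises.

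Regulators that act on the members were read from lists of genes that are no members. The counts are set against all genes, of which Dox called 31.5% higher and 32.7% lower at 6 h and 40.4% and 41% at 24 h, 5FU 23.4% and 24.5%, then 28% and 27.8%, and Ace 16.5% and 15.2%, then 18.2% and 19.1%. Of 6 genes of eIF2 kinases and phosphatase subunits, 5 rose with Dox at each time. At 24 h Ppp1r15a (GADD34, which directs dephosphorylation of eIF2α) rose by 2.27, Eif2ak2 (PKR) by 2.11 and Eif2ak1 (HRI) by 1.99 on the log2 scale. With 5FU 3 rose and 1 fell at each time, and with Ace 3 rose at 6 h and 1 moved each way at 24 h. Of 15 genes of mTORC1 and its regulators, Dox raised 6 and lowered 5 at 6 h and raised 8 and lowered 4 at 24 h. Mlst8, a subunit of mTORC1, fell by 1.46 and 1.64, and Sesn2, a stress-induced inhibitor, rose by 0.92 and 1.64. The list did not move in 1 direction. Rptor fell by 1.02 and 0.91, but Sesn1, a relative of Sesn2, fell by 0.80 and 1.11. Mtor rose by 0.86 and Rheb by 0.40 at 24 h. In 5FU 4 rose and 4 fell at 6 h and 6 rose and 5 fell at 24 h (Sesn2 by 0.96 and 0.80), and Ace gave 4 and 1, then 2 and 1.

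Enzymes and partners of the members gave further counts, to be read against the same shares of all genes. Of the 4 genes of eEF2 kinase, the MNK kinases and Pdcd4, all fell with Dox at 6 h, and 3 fell at 24 h, led by Mknk1 (-1.84), while Pdcd4, an inhibitor of eIF4A, rose by 0.42. Mknk2, a kinase of eIF4E, rose with Ace by 0.65 and 0.39 as the single call of its list at each time, and 5FU gave 1 rise and 1 fall, then 3 rises and 1 fall. Of the 5 genes of poly(A)-binding protein and its partners, Pabpc1 fell by 0.82 with 5FU and by 1.08 with Dox at 24 h and rose by 0.25 with Ace at 6 h. Paip2b, an inhibitor of that protein, rose with Ace by 0.58 and 0.63, with Dox at 24 h by 0.96 and with 5FU at 6 h by 0.25. Paip2 rose with 5FU (0.26 and 0.42) and with Dox (0.66 and 0.31) and was called at neither time with Ace. Of 6 diphthamide enzymes, which modify eEF2, 5 rose and 1 fell with 5FU at 24 h (Dph7 by 1.32), and Dox gave 2 rises and 3 falls at 6 h and 1 rise and 3 falls at 24 h. Of the 2 hypusine enzymes, Dhps rose by 0.35 with Dox at 6 h and fell by 0.50 at 24 h, while Dohh rose by 0.31 at 24 h. Of 8 measured genes of termination, recycling and rescue, Dox raised 4 and lowered 4 at 24 h, among them a fall of Abce1, the recycling ATPase, and of 9 mitochondrial translation factors it raised 2 and lowered 5, with Mtif3 at -1.29. Of these 9, 5FU raised 4 at 6 h.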

How the data were processed

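PolyA RNA of 65 cultures was sequenced. Per the study's methods the authors assigned reads with kallisto 0.46.0 to the Ensembl rat transcriptome, summed the estimates to genes with tximport and removed genes under 10 counts in every sample. The deposited values are these estimated counts per gene as whole numbers, so reads of near-identical copies were shared out by the estimate. The default settings of kallisto, which the methods name, do not use strand, so a gene and an antisense partner cannot be told apart. Groups came from the sample labels. The table's columns name the group and not the replicate, so a library number is only a name within its group. No pair of libraries of a group agreed within sampling noise.

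Symbols were taken from the GRCr8 annotation (14009 of 14554 genes). Counts were scaled by TMM and fitted over all 10 groups with the quasi-likelihood test of edgeR 4.0.16 (R 4.3.3, limma 3.58.1), two-sided, with Benjamini-Hochberg adjustment over 14554 genes and a threshold of 0.01. There were 18 contrasts. The SE was the absolute log2 fold change divided by the square root of F. The scripts were tested on simulated data. Alternatives were DESeq2 1.42.0, DESeq2 size factors, library size only, a filter on low counts, a fit of the compared groups alone, a threshold of 0.1, a minimum absolute log2 fold change of 1 and leaving out each library.

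Any member could be named by role. Full values were given for the 3 largest called rises and falls per drug comparison with a mean count of at least 100, and for the factors Eif4ebp1, Eif4ebp2, Eif4e, Eif4a1, Eif4a2, Eif4g1, Eif2s1, Eif2b5, Eif5a, Eif5a2, Eef1a1, Eef1a2, Eef2 and Eif6. The members and all gene lists were chosen with earlier results of these data known. Promoter windows were taken from RefSeq (GRCr8).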

Additional observations from a re-analysis of the deposited data

Results flagged for a closer look

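Of 250 sets of a gene and a group, 19 held a library apart from the rest by Dixon's criterion, which chance alone gives in about 1 of 20 sets. Library 1 of 5FU at 6 h held 4 of them: Eif4ebp1 at 220 CPM (the rest 100.2 to 115), Eef1e1 at 40.7 (24.5 to 30.3), Eif6 at 129 (92.9 to 104) and Eef1a2 at 700 (815 to 879.7). Library 4 of Dox at 6 h held 3, with Eif1 at 369 CPM (the rest 269 to 293), Eif4ebp1 at 179 (107 to 134) and Eef1a2 at 553 (660 to 722). In both libraries Eif4ebp1 was high and Eef1a2 low. Library 7 of Dox at 24 h held 3, with Eif2s1 at 148 CPM (113 to 127), Eif4a2 at 328 (252 to 281) and Eif5a at 377 (442 to 472). Library 6 of Ace at 6 h had Eef1e1 at 30.9 CPM and Eif1a at 51.2, and library 3 of DMSO2 at 6 h had Eif1a at 60.2 and Eif2s1 at 99.3. The others were Eef1akmt1 in DMSO2 at 24 h (13.3 CPM), Eef2 in Ace at 24 h (3460 CPM to 3 digits), Eif1 in 5FU at 24 h (515 CPM), Eif5a2 in DMSO1 at 24 h (26.8 CPM) and Eif5a2 in Ace at 24 h (22.2 CPM). What sets these libraries apart was not tested.

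Effects that differed between groups by an edgeR test of the difference itself were counted per contrast. Between 24 and 6 h the effect differed for 27 members in 5FU, 2 in Ace and 45 in Dox. Between drugs it differed for 26 members at 6 h and 40 at 24 h (Dox and 5FU), 9 and 24 (Ace and 5FU) and 46 and 50 (Dox and Ace).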

How the results depend on the processing

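No paired analysis was possible because the columns of the count table carry no replicate numbers. Of 175 values of named genes 109 passed the threshold, 89 of these also with DESeq2, DESeq2 size factors, library size only, both filter settings, the compared groups alone and any single library left out, and none was reversed under these. The threshold of 0.1 and the minimum fold change were applied to counts of members only. With scaling by library size only, called members numbered 17 for Ace at 6 h, 4 for DMSO1 against DMSO2 at 6 h and 1 at 24 h, and 6 for the Ace effect at 24 against 6 h. With only the compared groups fitted they numbered 14 for 5FU at 6 h, 27 for Ace at 24 h and 4 for the controls at 6 h. At a threshold of 0.1 they numbered 22 and 31 for Ace at 6 and 24 h, 24 and 2 for the controls and 8 for the Ace effect between times. With a minimum absolute log2 fold change of 1 they numbered 0 at 6 h for each drug and for the controls, 12 (Dox), 3 (5FU) and 1 (Ace) at 24 h, 1 for time in the controls, and 0, 0 and 4 for the time differences of 5FU, Ace and Dox, since that rule is stricter. Where not stated the cause was not tested. With any single library left out there were 4 to 13 members for the controls at 6 h, 0 to 1 at 24 h (1 without library 2 of DMSO1) and 1 to 2 for the Ace effect between times. For the drugs against their controls there were 24 to 28 and 32 to 36 (5FU), 9 to 12 and 13 to 16 (Ace) and 39 to 43 and 51 to 54 (Dox). Members with few counts, such as Eef1akmt3, limit what can be read from their calls.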
